A study of Mus musculus with 6 samples.

Results

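The Polycomb complex genes described here were 10 genes taken by their symbols from the 55364 genes of the deposited expression table. *Ezh2*, *Eed*, *Suz12* and *Jarid2* encode subunits of Polycomb repressive complex PRC2. *Rnf2* and *Ring1* encode the ubiquitin ligases of PRC1, *Rybp* and *Yaf2* encode the related PRC1 subunits that bind YY1, and *Kdm2b* and *L3mbtl2* encode subunits of variant forms of PRC1. The genes are a list of names with no threshold on a measured value, chosen with earlier results of these data known, and all 10 were expressed highly enough to be among the 17353 genes tested. RNA-seq was performed on mouse morulae from BDF1 x BDF1 crosses. Zygotes obtained by in vitro fertilization were injected with a control siRNA (control KD) or with an siRNA against *Yy1* (*Yy1* KD), cultured in KSOM, and collected as pools of morulae, with 3 libraries per group. A knockdown by siRNA lowers an RNA without removing the gene. The protein that the oocyte supplied is not targeted by it, and every cell of the embryo derives from the injected zygote. The pools were made of whole embryos, so fewer cells that express a gene and less of its RNA per cell cannot be told apart. No label ties the pools to separate mating or injection days, and p-values measure the spread between these pools.

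Polycomb proteins keep developmental genes silent by modifying histones. PRC2 is built on a core of EED, SUZ12 and EZH2, or its paralog EZH1, and places the mark H3K27me3. JARID2 is an accessory subunit that helps to bring PRC2 to chromatin. PRC1 places ubiquitin on histone H2A through RNF2 (also called RING1B) or RING1. Every PRC1 also holds 1 of 6 PCGF proteins, which sets its type. Canonical PRC1 has CBX and PHC proteins and reads H3K27me3, and variant PRC1 has RYBP or its paralog YAF2 in place of CBX. KDM2B is a CpG-binding demethylase that anchors the variant form with PCGF1 at CpG islands, and L3MBTL2 belongs to the form with PCGF6, MGA and E2F6. YY1 is a zinc finger transcription factor related to fly Pleiohomeotic, which recruits Polycomb proteins in flies, and RYBP was named as a protein that binds both RING1 proteins and YY1.

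The knockdown and the tissue were checked first. *Yy1* was at 96.0, 100.2 and 89.8 TPM (a share of the library's transcripts, corrected for the joined length of all annotated exons of a gene) in control KD and at 8.73, 8.90 and 8.32 TPM in *Yy1* KD, which is 9.07% of control (log2 change -3.32, adjusted p = 6.7e-05 by limma). All 10 morula markers were expressed, and their summed level was 2236 to 2530 TPM in control KD against 1896 to 2206 TPM in *Yy1* KD. Among these markers 1 was called, *Tfap2c*, which fell by 0.54 on the log2 scale (adjusted p = 0.0174 by limma). The log2 change was below 0 for 8 of the 10 and above 0 for 2. *Cdh1*, named after its value was seen, averaged 199 ± 52.6 TPM in control KD against 114 ± 32.4 TPM in *Yy1* KD (SD, n = 3). Its groups overlapped and it was not called (log2 change -0.80, adjusted p = 0.125 by limma). Of 10 cumulus and granulosa cell markers, 5 were at 0 in every library, the highest value of any was 2.53 TPM, and their sums were 1.48 to 3.44 TPM in control KD against 1.71 to 3.71 TPM in *Yy1* KD. Between 11793509 and 24417789 read pairs on genes were recovered per library.

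In control KD morulae the Polycomb complex genes spanned a wide range of levels. Levels compared between genes, here and in ratios or sums below, depend on the annotated exon lengths. A comparison of the 2 groups within a gene does not. *Suz12* was the highest at 434 ± 31.0 TPM (SD, n = 3), followed by *Jarid2* at 295 ± 20.0 TPM, *Ezh2* at 109 ± 3.92 TPM, *Kdm2b* at 94.6 ± 0.499 TPM and *Eed* at 89.7 ± 2.50 TPM. *Rnf2* was at 56.2 ± 9.81 TPM, *Rybp* at 45.0 ± 5.74 TPM, *L3mbtl2* at 33.9 ± 2.55 TPM, *Yaf2* at 19.9 ± 1.33 TPM and *Ring1* at 9.34 ± 0.635 TPM. *Suz12* was above 98.3% of the genes tested and *Ring1* above 51.4%. Only the neighbours *Rnf2* and *Rybp* overlapped in their control libraries. In *Yy1* KD the order changed at 2 places, with *Eed* ahead of *Ezh2* and *Kdm2b*, and *Yaf2* ahead of *L3mbtl2*; the ranges of *Eed* and *Ezh2* overlapped there, as did those of *Kdm2b* and *Rnf2*. The lowest number of read pairs behind a value was 123, for *Ring1*, and the highest was 27796, for *Jarid2*; none was recovered for *Eed*, whose gene model differed between the annotations.

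**Figure D1:**
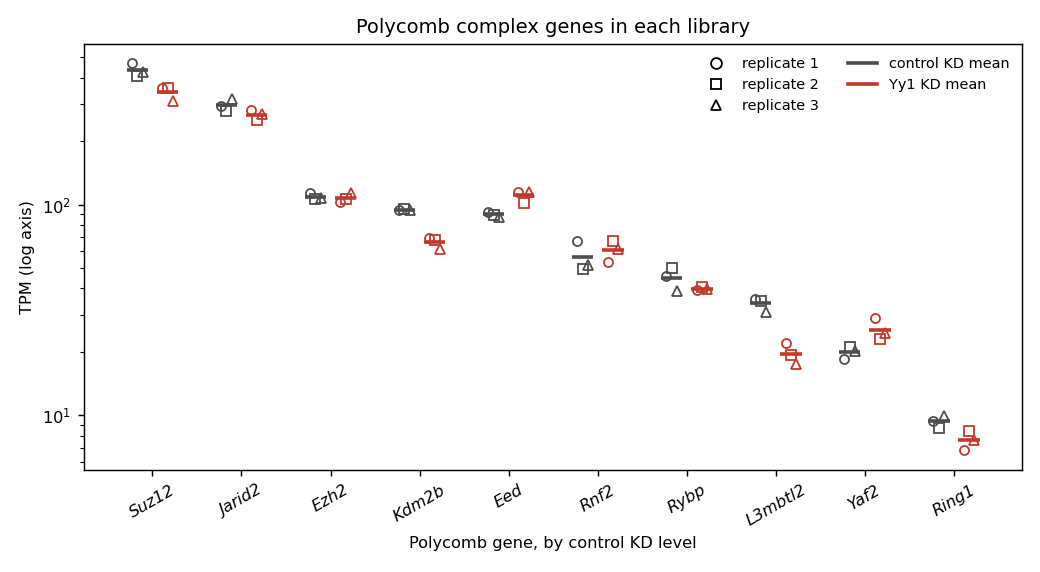
TPM (log axis) of the 10 Polycomb complex genes in the 3 control KD and 3 Yy1 KD libraries, with symbols for replicates and bars for group means, ordered by control KD level. The Yy1 KD libraries lie below all control libraries for Suz12, Kdm2b, L3mbtl2 and Ring1 and above them for Eed and Yaf2.

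The promoters were taken from RefSeq (GRCm38.p6), from 250 bases before to 50 bases after each start, and 8 of the 10 genes had an entry there; *Rybp* and *Yaf2* had none. They were rich in G and C, with a median GC content of 67.7% (54.7% to 74.0%) against 60.3% for all tested genes with an entry, and a median observed to expected CpG ratio of 0.865 against 0.754. The YY1 consensus was searched as GCCATNTT and on the other strand as AANATGGC. It was held by 6.05% of all 32851 promoter windows and by 10.4% of the 9767 tested genes with an entry. Of the 8 genes 1, *Jarid2*, held a site, and *Kdm2b* had 4 windows, none with a site. The 30 bases around the *Jarid2* site, which begins 14 bases before 1 of its 2 listed starts, are shown 5′ to 3′ with the motif in capitals (chr13:44730749-44730778, plus strand). The second sequence is the 100 bases before the start of *L3mbtl2*, the gene with the largest log2 change of the 10, and the motif letters were not found in its window (chr15:81663789-81663888, plus strand).
Jarid2: ccgtggccataGCCATTTTgtagtcaaggg
L3mbtl2: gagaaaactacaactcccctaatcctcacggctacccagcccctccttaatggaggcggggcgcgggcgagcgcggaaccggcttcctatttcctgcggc

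*Kdm2b* and *L3mbtl2*, both of variant PRC1, were downregulated in *Yy1* KD morulae, and the other 8 genes were not called in either direction. Differences were tested with limma on log2(TPM + 1) over all 17353 genes, and a gene was called at a Benjamini-Hochberg adjusted p under 0.05. By this rule 2 of the 10 genes were called, where 6.11% of all genes tested were called. Both were lower, and 4.20% of all genes tested were called lower. None of the 10 was called higher by limma, against 1.92% of all genes tested, and 2 of the 10 were higher and 3 lower at an unadjusted p under 0.05, where 9.35% of all genes tested were higher and 14.4% lower. limma-voom on recovered read pairs, which covered all but *Eed*, also called none higher, where it called 801 of 16931 genes higher. The *Yy1* KD and control KD libraries did not overlap for 6 of the 10 genes, which was so for 30.1% of all genes tested. The log2 change was below 0 for 7 genes and above 0 for 3, with a median of -0.15 over the 10 genes and -0.02 over all genes tested.

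Among the PRC2 core genes, the SUZ12 and EED transcripts changed in opposite directions without passing the test. *Suz12* (chr11:79993106-80034123, plus strand, GRCm38), which encodes the scaffold of PRC2, was at 468, 408 and 426 TPM in control KD and at 359, 359 and 309 TPM in *Yy1* KD. All *Yy1* KD values lay below all control values, and the mean was 78.8% of control (log2 change -0.34, SE 0.09, 95% interval -0.56 to -0.13). This difference missed the threshold over all genes (adjusted p = 0.0785 by limma). It passed with TPM rescaled to protein-coding genes (adjusted p = 0.0240) and by limma-voom (adjusted p = 0.0174), and the lowest value with 1 library left out was 0.113.

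*Eed* (chr7:89954654-89980983, minus strand) encodes the subunit that binds H3K27me3 and stimulates the enzyme. It was at 92.5, 88.9 and 87.7 TPM in control KD and at 115, 101 and 115 TPM in *Yy1* KD. Here all *Yy1* KD values lay above all control values, and the mean was 123.1% of control (log2 change 0.29, SE 0.08, 95% interval 0.11 to 0.48, adjusted p = 0.0804 by limma). With TPM rescaled to protein-coding genes *Eed* was called higher (adjusted p = 0.0402).

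*Ezh2* (chr6:47530139-47595341, minus strand), the gene of the H3K27 methyltransferase, was at 113, 106 and 107 TPM in control KD and at 103, 106 and 114 TPM in *Yy1* KD. The groups overlapped, and the log2 change was -0.02 (SE 0.07, 95% interval -0.19 to 0.15, adjusted p = 0.908 by limma). Its sign turned with median-ratio or quantile scaling. *Ezh1*, the paralog that also forms PRC2, was at 13.0, 10.7 and 11.8 TPM in control KD and at 8.45, 7.75 and 9.66 TPM in *Yy1* KD, without overlap but not called (log2 change -0.42, SE 0.14, adjusted p = 0.137 by limma).

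*Jarid2* (chr13:44729474-44921643, plus strand) was at 292, 277 and 317 TPM in control KD and at 279.9, 253 and 268 TPM in *Yy1* KD. The ranges overlapped, and the log2 change was -0.15 (SE 0.08, 95% interval -0.33 to 0.04, adjusted p = 0.319 by limma).

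The ubiquitin ligase genes of PRC1 differed in level, and neither was called. *Rnf2* (chr1:151458004-151500955, minus strand) was at 67.4, 49.4 and 51.8 TPM in control KD and at 53.6, 67.4 and 61.8 TPM in *Yy1* KD. The groups overlapped, with 1 control library as high as the highest *Yy1* KD library (log2 change 0.12, SE 0.14, 95% interval -0.22 to 0.47, adjusted p = 0.663 by limma). *Ring1* (chr17:34020792-34024680, minus strand) was at 9.38, 8.69 and 9.96 TPM in control KD and at 6.81, 8.38 and 7.66 TPM in *Yy1* KD. The *Ring1* groups did not overlap, but the gap between the nearest libraries was small (log2 change -0.27, SE 0.14, 95% interval -0.60 to 0.07, adjusted p = 0.308 by limma).

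*Rybp* and *Yaf2*, whose proteins bind YY1 and replace one another in variant PRC1, had log2 changes of opposite sign, and neither was called. *Rybp* (chr6:100228565-100287485, minus strand) was at 46.0, 50.2 and 38.8 TPM in control KD and at 39.2, 40.6 and 39.9 TPM in *Yy1* KD. The *Yy1* KD values lay within the range of the control values (log2 change -0.16, SE 0.11, 95% interval -0.42 to 0.10, adjusted p = 0.428 by limma). *Yaf2* (chr15:93284278-93336935, minus strand) was at 18.5, 21.1 and 20.1 TPM in control KD and at 28.9, 23.0 and 24.5 TPM in *Yy1* KD. The *Yaf2* groups did not overlap, and the mean was 127.9% of control (log2 change 0.34, SE 0.12, 95% interval 0.05 to 0.62, adjusted p = 0.149 by limma).

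*Kdm2b* (chr5:122870665-122989823, minus strand) was at 94.6, 95.1 and 94.1 TPM in control KD and at 69.7, 67.7 and 61.8 TPM in *Yy1* KD. The 3 control values were nearly equal and all *Yy1* KD values lay well below them. *Kdm2b* was 1.42-fold lower, at 70.1% of control (log2 change -0.51, SE 0.08, 95% interval -0.69 to -0.33, adjusted p = 0.0186 by limma). With 1 library left out the adjusted p by limma was 0.0676, 0.0627 and 0.0753 without control KD replicates 1, 2 and 3 and 0.0399, 0.0632 and 0.0522 without *Yy1* KD replicates 1, 2 and 3, while the log2 change stayed between -0.54 and -0.46. It was also lost without a variance trend (adjusted p = 0.0650). *Kdm2b* shares 627 exonic bases, 5.77% of its exons, with *Rnf34* on the other strand, and reads were assigned without strand. *Rnf34* itself was at 35.7, 32.3 and 33.4 TPM in control KD and at 33.1, 36.9 and 33.8 TPM in *Yy1* KD.

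*L3mbtl2* (chr15:81663889-81688315, plus strand) encodes a protein with MBT domains that compacts chromatin. It had the largest difference of the 10 genes, at 35.8, 35.0 and 31.0 TPM in control KD and at 21.9, 19.2 and 17.4 TPM in *Yy1* KD. The groups lay far apart, and *L3mbtl2* was 1.71-fold lower, at 57.5% of control (log2 change -0.77, SE 0.12, 95% interval -1.05 to -0.49, adjusted p = 0.0204 by limma). With 1 library left out the adjusted p was 0.0759, 0.0671 and 0.0617 without control KD replicates 1, 2 and 3 and 0.0361, 0.0739 and 0.0549 without *Yy1* KD replicates 1, 2 and 3, at log2 changes of -0.85 to -0.70. *Chadl*, on the other strand, shares 1023 exonic bases, 17.2% of the exons of *L3mbtl2*, and was at 4.28, 5.71 and 4.03 TPM in control KD and at 3.71, 2.27 and 3.26 TPM in *Yy1* KD (log2 change -0.48, adjusted p = 0.252 by limma). The part of such shared reads in the difference of *L3mbtl2* was not tested.

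**Figure D2:**
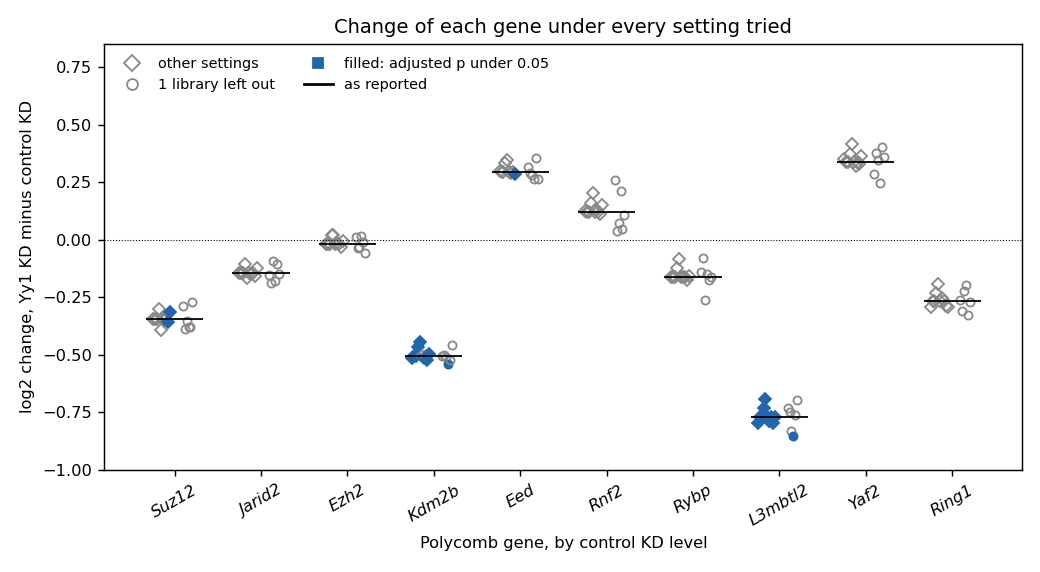
Log2 change (Yy1 KD minus control KD) of each of the 10 genes as reported (bars), with other settings (diamonds) and with 1 library left out (circles); filled symbols have an adjusted p under 0.05. Kdm2b stays between -0.54 and -0.45 and L3mbtl2 between -0.85 and -0.69 in every setting, while Ezh2 lies on both sides of 0.

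Ratios within a library do not depend on how the library was scaled, and 5 ratios between paralogs or partners were compared. In all 5 the control KD and *Yy1* KD libraries did not overlap, and each had p = 0.1 by a two-sided exact permutation test, the smallest that 3 libraries against 3 allow, and 0.1 after Benjamini-Hochberg adjustment over the 5, so none passed a threshold. Every pair held at least 1 gene whose own values did not overlap between groups, and *Suz12* and *Eed* both did so in opposite directions. How often other pairs of genes do not overlap was not tested. *Suz12* was 5.06, 4.59 and 4.86 times as high as *Eed* in control KD and 3.12, 3.54 and 2.68 times as high in *Yy1* KD (mean log2 ratio 2.27 ± 0.07 and 1.63 ± 0.20, SD, n = 3, difference -0.64). *Ezh2* was 1.23, 1.20 and 1.22 times as high as *Eed* in control KD and 0.892, 1.05 and 0.989 times in *Yy1* KD, so that both transcripts were near parity in *Yy1* KD (difference -0.32 on the log2 scale).

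The ratios of the paralog pairs also did not overlap between groups. *Rybp* was 2.49, 2.38 and 1.93 times as high as *Yaf2* in control KD and 1.36, 1.77 and 1.63 times in *Yy1* KD (difference -0.52 on the log2 scale). *Rnf2* was 7.19, 5.68 and 5.20 times as high as *Ring1* in control KD and 7.87, 8.04 and 8.07 times in *Yy1* KD (difference 0.42), where control KD replicate 1 came close to the *Yy1* KD libraries. *Ezh2* was 8.72, 9.94 and 9.06 times as high as *Ezh1* in control KD and 12.2, 13.7 and 11.8 times in *Yy1* KD (difference 0.44).

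**Figure D3:**
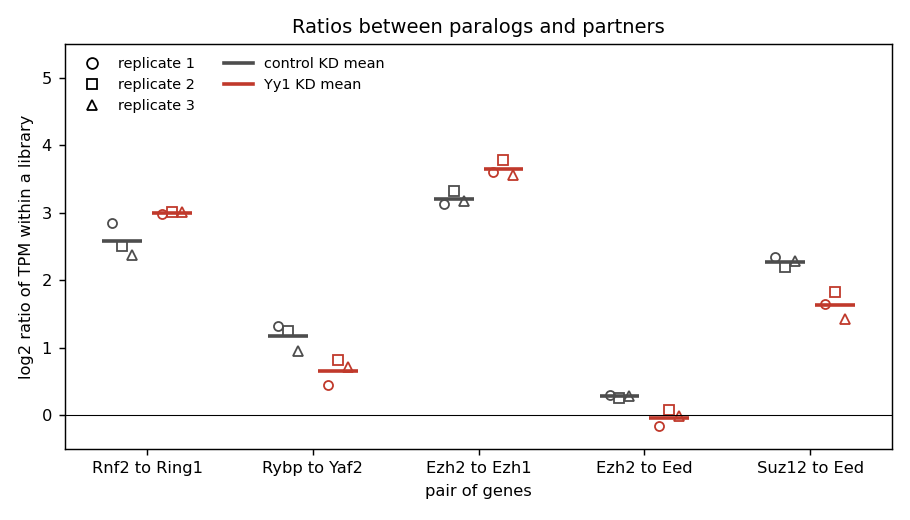
Log2 ratio of TPM within each library for 5 pairs of Polycomb genes, with symbols for the 3 replicates per group and bars for group means. The Yy1 KD libraries lie below all control KD libraries for Rybp to Yaf2, Ezh2 to Eed and Suz12 to Eed, and above them for Rnf2 to Ring1 and Ezh2 to Ezh1.

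The other genes of the pathway were counted by the same fit, from lists of PRC2, PRC1, YY1-related, H2A deubiquitinase and H3K27 demethylase genes. Without *Yy1*, 59 of these were tested, and limma called 5 lower and none higher, where 4.20% and 1.92% of all genes tested were called. At an unadjusted p under 0.05, 18 were lower and 7 higher, where 14.4% and 9.35% of all genes tested were. The limma-voom fit called 13 lower and 2 higher, where it called 1285 lower and 801 higher of 16931 genes. The median log2 change of the 59 genes was 0.01, with 27 below 0 and 32 above. None of the 7 tested PRC2 partners was called by limma (3 lower and none higher at an unadjusted p under 0.05; limma-voom called *Aebp2* and *Epop* lower, the latter named after its value was seen). *Rbbp7*, a histone-binding subunit, averaged 691 ± 80.6 TPM in control KD against 712 ± 50.0 TPM in *Yy1* KD (SD, n = 3). *Rbbp4*, its paralog, averaged 88.3 ± 2.63 and 88.9 ± 1.91 TPM, and *Mtf2*, a Polycomb-like subunit that binds CpG-rich DNA, averaged 216 ± 17.5 and 211 ± 47.5 TPM. *Aebp2*, the partner of JARID2 in PRC2, averaged 123 ± 3.32 TPM in control KD against 96.2 ± 10.6 TPM in *Yy1* KD (log2 change -0.36, adjusted p = 0.0750 by limma).

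In canonical PRC1, 1 of 12 genes was called lower and none higher by limma, where 4.20% and 1.92% of all genes tested were called. At an unadjusted p under 0.05, 5 were lower and none higher, where 14.4% and 9.35% of all genes tested were. The median log2 change was -0.34, with 7 genes below 0 and 5 above. *Bmi1* (chr2:18677018-18686629, plus strand), the PCGF4 subunit, was at 54.3, 55.6 and 54.8 TPM in control KD and at 24.5, 29.3 and 31.7 TPM in *Yy1* KD. It was 1.90-fold lower (log2 change -0.93, SE 0.11, adjusted p = 0.0122 by limma), and the call was lost without control KD replicate 1 (adjusted p = 0.0514) or 3 (adjusted p = 0.0599). Its close paralog *Pcgf2* (MEL18) was at 12.9, 12.9 and 20.5 TPM in control KD and at 9.98, 7.97 and 6.18 TPM in *Yy1* KD and was not called (log2 change -0.85, adjusted p = 0.0890 by limma). *Pcgf2* was called lower by limma-voom and with TPM rescaled to protein-coding genes.

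In variant PRC1, 1 of 23 genes was called lower and none higher by limma, where 4.20% and 1.92% of all genes tested were called. At an unadjusted p under 0.05, 5 went in each direction, where 14.4% of all genes tested were lower and 9.35% higher. The median log2 change was 0.06, with 8 genes below 0 and 15 above. *E2f6* (chr12:16810963-16839742, plus strand), which encodes a DNA-binding partner of L3MBTL2 in the PCGF6 form, was at 18.5, 19.9 and 19.0 TPM in control KD and at 14.5, 11.9 and 11.7 TPM in *Yy1* KD (log2 change -0.56, SE 0.12, adjusted p = 0.0468 by limma). The call was lost with any 1 library left out (adjusted p 0.0545 to 0.138) and in 5 of 10 other settings. *Mga* and *Pcgf6* of the same form averaged 95.3 ± 5.21 and 28.6 ± 2.78 TPM in control KD and 98.6 ± 10.1 and 31.4 ± 1.87 TPM in *Yy1* KD; they were not called and were chosen after their values were seen. *Pcgf1* and *Bcor*, which with KDM2B form the variant complex of CpG islands, were also chosen after their values were seen. They averaged 23.4 ± 5.62 and 15.6 ± 3.76 TPM in control KD and 18.7 ± 2.75 and 9.76 ± 0.661 TPM in *Yy1* KD, and were not called by the rule above. The *Bcor* groups did not overlap (log2 change -0.60, adjusted p = 0.104 by limma). *Bcor* was called lower by limma-voom and with TPM rescaled to protein-coding genes, and *Pcgf1* by neither.

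**Figure D4:**
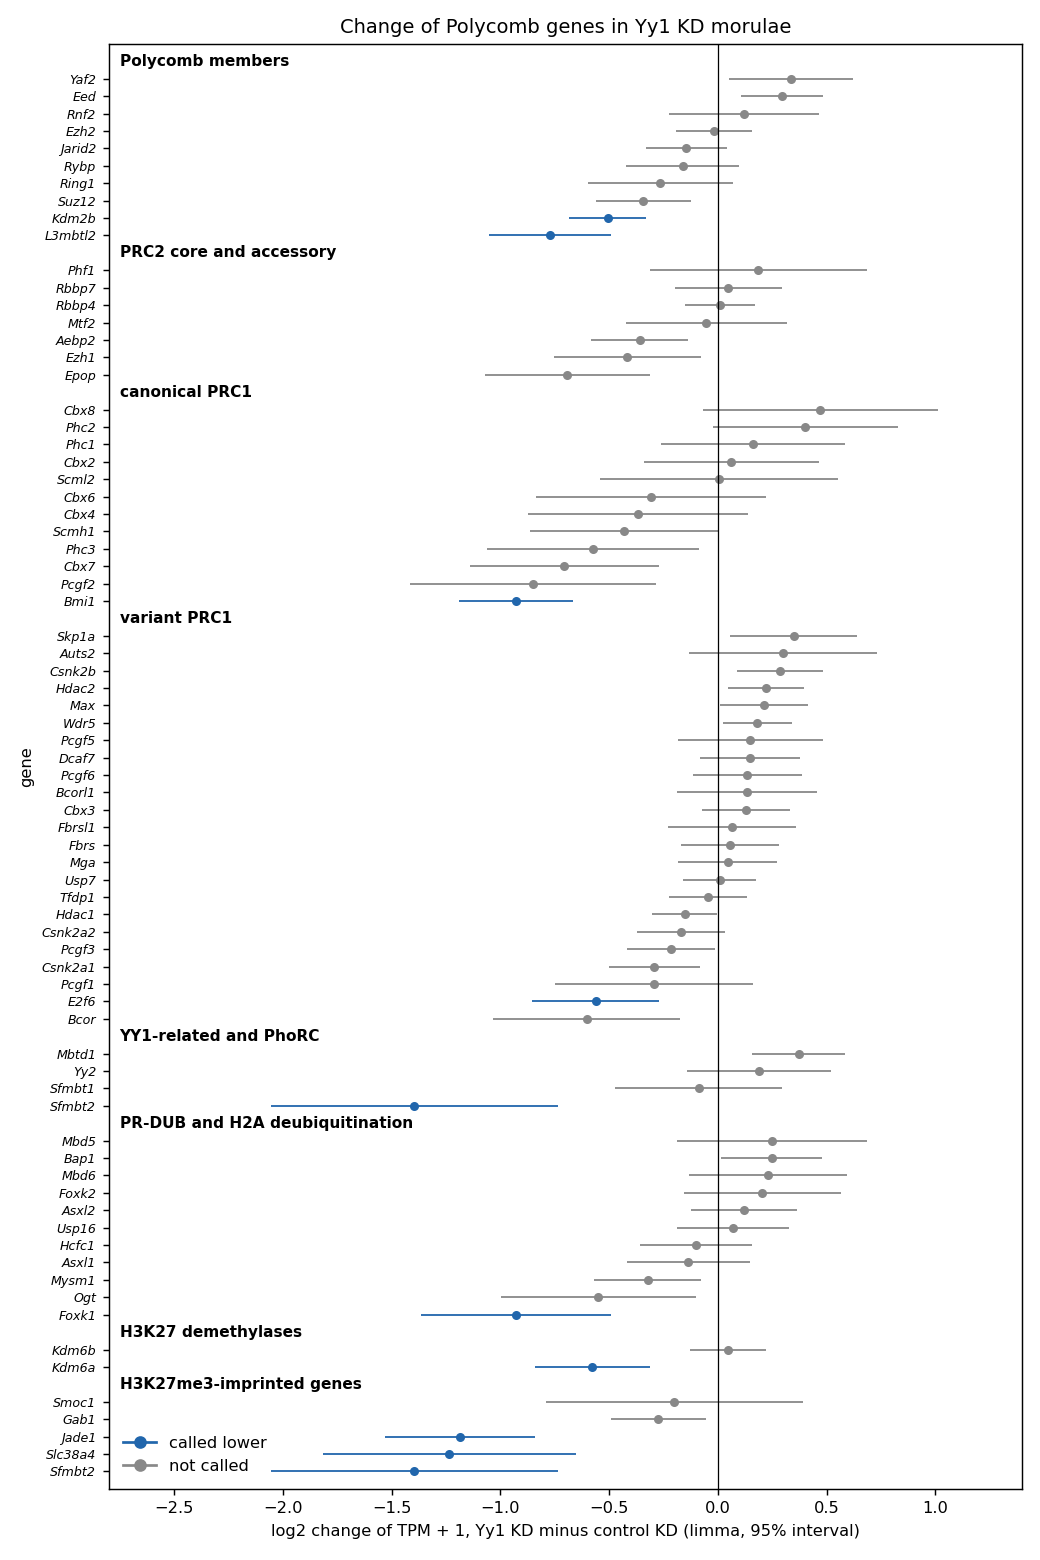
Log2 change of TPM + 1 (Yy1 KD minus control KD, points) with 95% limma intervals (lines) for the 10 Polycomb complex genes, the other Polycomb genes tested and the H3K27me3-imprinted genes; Yy1 itself is left out. Genes called lower are blue, no gene shown was called higher, and Kdm2b and L3mbtl2 are the called genes among the 10.

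The 6 PCGF paralogs summed to 168, 153 and 163 TPM in control KD and to 115, 130.4 and 124 TPM in *Yy1* KD. *Bmi1* made up 32.2%, 36.4% and 33.7% of that sum in control KD and 21.3%, 22.5% and 25.5% in *Yy1* KD. *Pcgf6* made up 18.8%, 17.1% and 17.2% in control KD and 26.9%, 25.6% and 23.9% in *Yy1* KD. Its own level was 31.6, 26.1 and 28.0 TPM in control KD and 31.1, 33.4 and 29.7 TPM in *Yy1* KD (log2 change 0.13, adjusted p = 0.493 by limma). A share also rises when the sum falls. *Bmi1* was thus first of the 6 in all control KD libraries, and *Pcgf6* exceeded it in *Yy1* KD replicates 1 and 2.

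**Figure D5:**
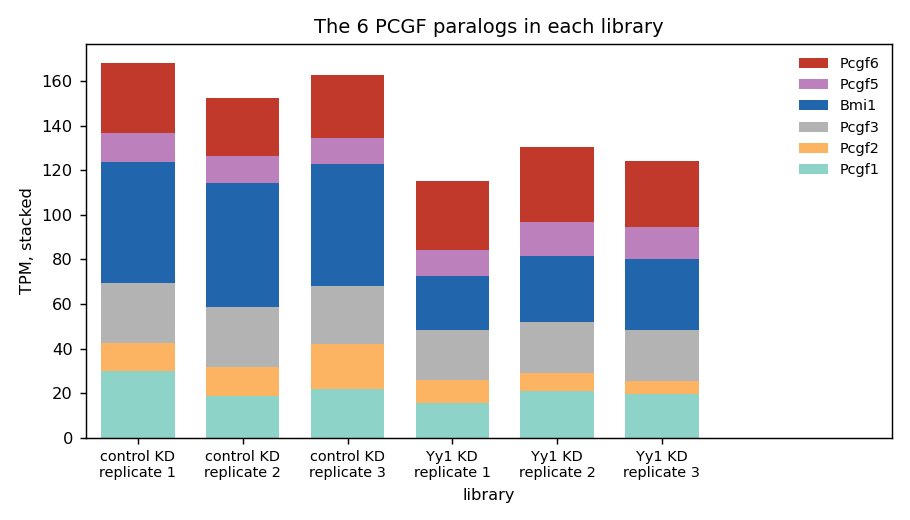
TPM of the 6 PCGF paralogs, stacked, in each of the 6 libraries. The stacks are 153 to 168 TPM high in control KD and 115 to 130.4 TPM high in Yy1 KD, and the Bmi1 layer is the one that differs most.

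Of the remaining lists, the YY1-related and PhoRC genes had 2 of 5 called lower, where 4.20% of all genes tested were called lower. These were *Yy1*, the target of the siRNA, whose fall is the knockdown itself, and *Sfmbt2*. *Sfmbt2* (chr2:10370510-10595253, plus strand), which encodes an MBT protein that pairs with YY1 as fly Sfmbt does with Pleiohomeotic, was at 7.83, 8.79 and 16.4 TPM in control KD and at 3.62, 3.61 and 2.90 TPM in *Yy1* KD (log2 change -1.39, SE 0.28, adjusted p = 0.0385 by limma). *Sfmbt1*, its paralog, averaged 7.14 ± 1.11 and 6.61 ± 0.346 TPM, and *Mbtd1* averaged 25.6 ± 1.51 TPM in control KD against 33.5 ± 1.19 TPM in *Yy1* KD (log2 change 0.37, adjusted p = 0.0610 by limma). Among 11 genes of H2A deubiquitination 1 was called, *Foxk1* (chr5:142401497-142462011, plus strand), a forkhead factor that binds the PR-DUB complex, which was at 12.8, 13.1 and 16.2 TPM in control KD and at 8.77, 5.92 and 6.18 TPM in *Yy1* KD (log2 change -0.93, adjusted p = 0.0373 by limma). *Kdm6a* (chrX:18162575-18279936, plus strand), the X-linked H3K27 demethylase UTX, fell by 0.58 on the log2 scale, from 33.1, 31.5 and 34.6 TPM to 22.9, 23.6 and 19.1 TPM (adjusted p = 0.0350 by limma), and its paralog *Kdm6b* averaged 84.1 ± 5.19 and 86.7 ± 0.598 TPM. With 1 library left out, *Sfmbt2* and *Kdm6a* were called in none of the 6 fits (adjusted p 0.0704 to 0.106 and 0.0726 to 0.121), and *Foxk1* only without *Yy1* KD replicate 1 (adjusted p = 0.0405, against 0.0887 to 0.124 in the others).

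A pair of gene lists linked to Polycomb was counted in the same fit. H3K27me3 itself was not measured in these morulae. *Hox* genes, the classic targets of Polycomb, were nearly silent in both groups. Of 39 *Hox* genes 5 passed the filter, and none was called by limma, where 4.20% of all genes tested were called lower and 1.92% higher. At an unadjusted p under 0.05, 1 was higher and none lower, where 9.35% of all genes tested were higher and 14.4% lower. Of the 39 *Hox* genes 3 were at 0 in every library, and the highest value of any was 2.93 TPM. Their summed level was 6.85 to 13.0 TPM in control KD against 11.8 to 15.7 TPM in *Yy1* KD. The 5 genes imprinted through maternal H3K27me3, which are expressed from the paternal allele in the early embryo, had 3 called lower and none higher by limma, where 4.20% of all genes tested were called lower. At an unadjusted p under 0.05, 4 were lower and none higher, where 14.4% of all genes tested were lower. *Jade1* (chr3:41555731-41616864, plus strand) was at 38.3, 26.5 and 33.2 TPM in control KD and at 13.1, 13.9 and 13.9 TPM in *Yy1* KD (log2 change -1.19, adjusted p = 0.0126 by limma), a call lost without control KD replicate 3 (adjusted p = 0.0599). *Slc38a4* (chr15:96994820-97055956, minus strand), an amino acid transporter, was at 9.48, 8.27 and 14.7 TPM in control KD and at 3.55, 4.91 and 3.36 TPM in *Yy1* KD (log2 change -1.23, adjusted p = 0.0375 by limma), with adjusted p of 0.0648 to 0.1004 when any 1 library was left out. *Sfmbt2*, given above, is the third. *Gab1* averaged 52.0 ± 2.98 and 42.9 ± 3.13 TPM and *Smoc1* 7.75 ± 2.32 and 6.51 ± 1.42 TPM, and neither was called (adjusted p = 0.131 and 0.678 by limma). The 2 parental alleles were not told apart.

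The YY1 consensus was held in the promoter window by 27.7% of the 517 genes called lower that had an entry, by 14.1% of the 192 called higher and by 9.33% of the 9059 not called. Among the other Polycomb genes, here with *Yy1* counted, 6 were called lower and 5 of these had an entry. A site was held by 3 of these 5 (60.0%) and by 5 of the 46 not called that had an entry (10.9%). All 4 of the H3K27me3-imprinted genes with an entry held 1. *Sfmbt2* is counted in both of these sets. The sites of the Polycomb genes called lower and of the H3K27me3-imprinted genes are shown, and those of the other Polycomb genes not called are not. Whether a site bears on the change of its gene was not tested. Each site is given 5′ to 3′ on the strand of its gene with the motif in capitals. The capitals match the other strand of the consensus in *E2f6*, *Gab1* and the second site of *Jade1*. The sites begin 170 bases before the start in *Bmi1* (chr2:18676837-18676866, plus strand), at base 8 after it in *E2f6* (chr12:16810961-16810990, plus strand) and at base 10 after it in *Sfmbt2* (chr2:10372434-10372463, plus strand). They begin 93 bases before the start and at base 4 after it in *Jade1* (chr3:41563647-41563676 and chr3:41563743-41563772, plus strand), and 173 bases before it in *Slc38a4* (chr15:97020514-97020543, minus strand) and 217 bases before it in *Gab1* (chr8:80880718-80880747, minus strand). Each start is one listed in RefSeq. In *Sfmbt2*, *Jade1* and *Slc38a4* this start lies inside the gene span given above, downstream of the 5′ end of the gene.
Bmi1: gcggactccgaGCCATTTTggagccggtgt
E2f6: gcgcatgcggaAAGATGGCcggccagggaa
Sfmbt2: atagagaggatGCCATATTggaatgaggct
Jade1, first: cgagaggctcaGCCATATTtgatggttttg
Jade1, second: agtacgtcattAATATGGCgccaaaagatt
Slc38a4: ttctgtcctggGCCATGTTttaccgagcgc
Gab1: tgggggttgtcAAGATGGCaaactcagtcg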

How the data were processed

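RNA-seq libraries of mouse morulae were made by the authors with the SMART-Seq stranded kit, 3 of control KD and 3 of *Yy1* KD pools, and assigned to groups by their titles. The authors trimmed the reads with Trim Galore (0.6.7), aligned them to mm10 with HISAT2 (2.2.1), removed ribosomal RNA reads with bedtools, and counted read pairs on GENCODE vM25 with featureCounts (2.0.1), ignoring strand and dividing pairs among overlapping genes; the versions come from the submitters' processing notes. The deposited values are TPM per gene and library. The authors used edgeR on read counts. TPM cannot enter a count model, so limma was used.

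A gene was kept where 3 or more of the 6 libraries had 1 TPM or more. limma (3.58.1, R 4.3.3) with a variance trend was fitted to log2(TPM + 1), and a gene was called at a Benjamini-Hochberg adjusted two-sided p under 0.05. Fold changes on this scale understate those of low genes. Differences are *Yy1* KD minus control KD. Ratios were compared by two-sided exact permutation tests. Gene positions, exon lengths and overlaps came from GENCODE vM21 (GRCm38), in which 54312 of 55364 gene identifiers (98.1%) had the same version. Read pairs were recovered as TPM times exon length, with a scale per library chosen to make values under 20 pairs come out whole. The scale was set on genes of the same version without exonic overlap, of which 89.0% to 90.9% of such values were whole within 0.02. Because the scale was chosen for it, this share is no independent check. It does not cover genes that share exons, such as *L3mbtl2*, *Kdm2b* and *Suz12*. Depth between libraries differed, and the number of libraries limits the precision.

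The 10 genes and all lists were chosen with earlier results of these data known. Besides the 10, *Ezh1* and *Yy1*, the genes named were the called genes of each list, up to 4 uncalled ones per list with the highest mean TPM, and the 3 genes of mean TPM 10 or more most correlated with each called gene of the 10; genes that overlap one of the 10 are also named, and any other gene is marked where it is named. The alternatives tried are given with their effect at the end. Replicate numbers were not treated as pairs. Scripts ran under Python 3.11.15 with matplotlib 3.10.9, scipy 1.17.1, pandas 2.3.3 and numpy 2.4.6.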

Additional observations from a re-analysis of the deposited data

How the results depend on the processing

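*L3mbtl2* was called in all 10 settings that kept the 6 libraries and *Kdm2b* in 8 of 10. The 2 genes called lower became 1 (*L3mbtl2*) without a variance trend and with the replicate block, and 0 to 2 with 1 library left out. *Eed* was the 1 gene of the 10 called higher with TPM rescaled to protein-coding genes. The log2 change of *Ezh2* changed sign, to 0.0206 with median-ratio scaling and 0.0205 with quantile normalization, and ran from -0.0591 to 0.0137 with 1 library left out, above 0 without replicate 1 of either group. Of the other Polycomb genes, 5 lower became 1 without a filter, without a trend or with the replicate block, 3 with quantile normalization, 11 with protein-coding genes, 13 with limma-voom and 0 to 2 with 1 library left out. None higher became 1 (*Mbtd1*) at a mean TPM of 5 or more, with median-ratio scaling, quantile normalization and protein-coding genes, and 2 with limma-voom. Over all genes, 728 lower and 333 higher became 270 and 77 without a filter, 382 and 132 without a trend, 1317 and 561 with protein-coding genes, 1285 and 801 with limma-voom, and 53 to 326 and 22 to 92 with 1 library left out. Called genes were lower in 68.6% of cases, in 58.5% with quantile normalization, and the median log2 change moved from -0.02 to 0.01 with median-ratio scaling and 0.02 with quantile normalization. Settings with fewer libraries or more genes tested have less power by construction; for the others the cause was not tested. No label says whether libraries of the same replicate number were paired. Their correlations of deviations were -0.004, 0.032 and 0.075, and not every library correlates best with its own number, which does not settle whether they were. A replicate block gave 218 lower and 69 higher genes, with *Kdm2b* at an adjusted p of 0.0646 and *L3mbtl2* at 0.0490 by limma. The 5 ratios kept their direction and lack of a call in every setting tried, where the exact permutation test cannot go below p = 0.1.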

Other observations

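The genes whose levels over the 6 libraries were most like those of *Kdm2b* and *L3mbtl2* were looked up among 8084 genes of mean TPM 10 or more, by Pearson's r of log2(TPM + 1). For *Kdm2b* they were *Lmnb2*, which encodes lamin B2 (r = 0.997), *Bloc1s2*, which encodes a subunit of a complex for lysosome-related organelles (r = 0.997), and *Zfr*, which encodes a zinc finger RNA-binding protein (r = 0.996). All 3 were called lower in *Yy1* KD, *Zfr* from 99.2 to 34.2 TPM, *Bloc1s2* from 54.7 to 33.6 TPM and *Lmnb2* from 23.4 to 12.5 TPM in group means. For *L3mbtl2* they were *Zbtb7b* (r = 0.998), a zinc finger transcription factor gene called lower from 45.7 to 33.5 TPM, and *Tpd52* (r = 0.996) and *Nup205*, a nucleoporin gene (r = 0.994), which were not called. These are the highest values among many genes over 6 libraries that fall into 2 groups, and they are given as a description.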
